A study of Mus musculus with 6 samples.

Results

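Nuclear pore and nuclear transport genes were examined in epididymal white adipose tissue (eWAT) of mice. The genes were matched by symbol, as the nucleoporins and their membrane anchors (Nup, Nupl, Pom121, Ndc1), the importins (Kpna, Kpnb, Ipo), the transportins (Tnpo), the exportins (Xpo), Ran and its partners (Ran, Rangap1, Ranbp) and the mRNA export receptor genes (Nxf1, Nxt). This choice was made with earlier results of these data known. The symbols of 57 of the 16619 deposited genes matched, and all 57 are annotated as protein-coding. The tissue came from 6-month-old females, with 3 Prmt5 AKO libraries (Adipoq-Cre, Prmt5 flox/flox) and 3 WT libraries (Prmt5 flox/flox, without Cre), so both genotypes carry the floxed allele. Adipoq-Cre acts in adipocytes, so the other cell types of the depot keep Prmt5 and add their RNA to each library. Values are CPM, here reads over the effective library size, and the reads behind them summed to between 18731215 and 27445096 per library.

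PRMT5 places symmetric dimethyl marks on arginine residues of histones and other proteins. Nuclear pore complexes are the channels of the nuclear envelope through which RNA and protein pass. They are built from nucleoporins, some of which form the ring-shaped scaffold while others fill the channel with phenylalanine-glycine repeats. Importins and exportins carry cargo through the channel and are loaded and unloaded by the small GTPase Ran, whereas most mRNA leaves the nucleus with the heterodimer of NXF1 and NXT1.

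Prmt5 itself had 14.6, 22.0 and 28.5 CPM in the 3 Prmt5 AKO libraries, against 36.6, 59.7 and 39.7 CPM in the 3 WT libraries. No Prmt5 AKO library reached the lowest WT library (log2 fold change -1.06 with a standard error of 0.34, limma adjusted p = 0.436). A two-sided exact permutation test on the CPM gave p = 0.1, which is the lowest value reachable with 3 libraries in each genotype. The 8 adipocyte markers examined, Adipoq and Plin1 among them, summed to between 23653 and 35386 CPM in Prmt5 AKO and between 27323 and 36571 CPM in WT, and none was at 0. A first principal component held 64.5% of the variance over all genes kept. On it Prmt5 AKO replicate 1 (-53.3) lay beside WT replicates 1 and 3 (-74.6 and -40.2), while Prmt5 AKO replicates 2 and 3 (61.0 and 81.0) lay on the other side with WT replicate 2 (26.1). The log2 fold changes of the members named with all values are therefore also given without Prmt5 AKO replicate 1 where its removal moved them by more than 1.5 times or took their unadjusted p across 0.05. Nothing in the labels ties a library to a mouse of its own, so the p-values here measure only the spread between these libraries, which may be technical.

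As a group the nuclear pore and transport genes centred near 0, as did all genes, and no test of a group shift was run. All 57 passed the filter of 0.5 CPM in 3 libraries. Their median log2 fold change (Prmt5 AKO over WT, on log2(CPM + 0.5)) was -0.07, beside -0.03 over all 16109 genes kept, and 26 of 57 (45.6%) were positive, beside 48.1% of all genes. A gene counted as called when its adjusted p was below 0.05 and its log2 fold change exceeded 0.5 in size. Limma called 0 of the 57 members and 0.00% of all genes. At an unadjusted p under 0.05 there were 2 members with higher values in Prmt5 AKO, Nup210 and Ranbp17, and 1 with lower values, Nxt2. These are 3.51% and 1.75% of the members, beside 4.79% and 3.93% of all genes (8.72% for both directions). EdgeR's quasi-likelihood test also called 0 members and 0.00% of all genes, and put 4 members below an unadjusted p of 0.05, with Nup188 besides these 3, where it put 5.04% of all genes as higher and 3.33% as lower.

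**Figure D1:**
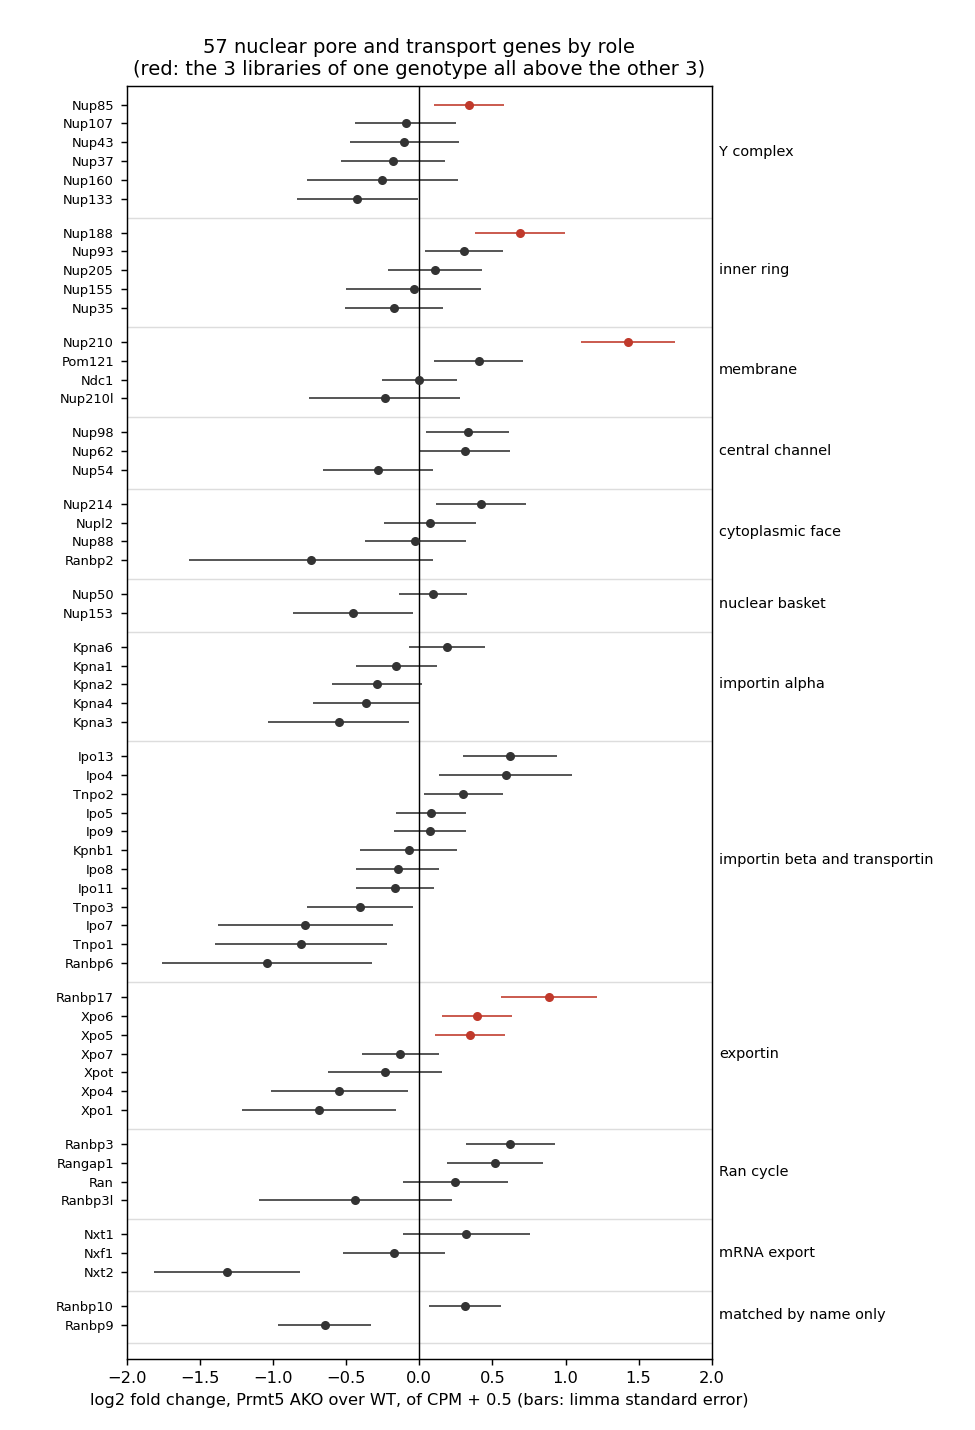
Log2 fold change (Prmt5 AKO over WT, of CPM + 0.5; horizontal axis) of each of the 57 genes, grouped by role, with limma's standard error as bars (3 libraries per genotype). Red marks the 6 genes whose Prmt5 AKO libraries all lay above the WT libraries. Nup210 has the highest value (1.43) and Nxt2 the lowest (-1.31).

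The spread between libraries was wide against the differences between the genotypes, as it was over all genes. In 42 of the 57 (73.7%) the difference between the genotypes was smaller than the larger of the within-genotype standard deviations on the log2 scale, beside 68.9% of all genes. The members' median within-genotype standard deviation was 0.46 in Prmt5 AKO and 0.28 in WT, below the 0.50 and 0.37 of all genes. Their median absolute log2 fold change was also smaller, at 0.31 beside 0.40. The 3 Prmt5 AKO libraries lay above all 3 WT libraries in 6 members (10.5%, beside 8.16% of all genes), namely Nup210, Ranbp17, Nup188, Xpo6, Xpo5 and Nup85. They lay below in 0 members, beside 6.28% of all genes.

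Nup210 (ENSMUSG00000030091), which encodes a transmembrane nucleoporin of the lumenal ring of the pore, showed the largest difference among the 57. It lies on the minus strand at chr6:91013068-91116829 (GRCm38). The libraries held 15.96, 14.4 and 25.8 CPM in Prmt5 AKO, against 6.27, 6.40 and 6.62 CPM in WT. The WT libraries were close together, and the lowest Prmt5 AKO library was still above all of them. The means were 18.7 ± 6.20 CPM in Prmt5 AKO and 6.43 ± 0.175 CPM in WT (SD, n = 3 each), a ratio of 2.91 (log2 fold change 1.43 with a standard error of 0.32, limma adjusted p = 0.318). Whether Nup210 passed the threshold depended on the test. On reads recovered from the deposited values, edgeR's likelihood ratio test (adjusted p = 0.0288) and DESeq2 (adjusted p = 0.00393) called it and edgeR's quasi-likelihood test did not (adjusted p = 0.346). It was the only one of the 57 called by the likelihood ratio test or DESeq2, where the likelihood ratio test called 0.677% of all genes as higher and 0.329% as lower, and DESeq2 1.20% and 0.671%.

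NUP210 is known in mice from the differentiation of muscle cells and from T cells. The 5 T and NK cell markers (Cd3e, Cd3d, Cd4, Cd8a and Nkg7) summed to 26.1, 23.0 and 63.5 CPM in Prmt5 AKO, against 9.82, 14.4 and 9.46 CPM in WT. All 5 had positive log2 fold changes (median 1.46), none was called by limma, and none was at 0 in all libraries. The library with the highest Nup210 value, Prmt5 AKO replicate 3, also had the highest sum of T and NK cell markers, and equally the highest sums of macrophage (2632 CPM), smooth muscle (1545 CPM), mesothelial (436 CPM) and B cell markers (125 CPM). The sums of these other 4 lists overlapped between the genotypes. Within them Cd68 and Tagln were higher in Prmt5 AKO without overlap (log2 fold changes 1.04 and 0.96), and Ms4a1 was lower (-1.32). Of the T and NK cell markers Cd3d overlapped and the others did not. Among markers of proliferating cells, Birc5, Cdk1 and Ccnb1 were higher in Prmt5 AKO without overlap, while Mki67, Top2a and Pcna overlapped. The 5 fibroblast markers summed to between 1006 and 1218 CPM in Prmt5 AKO, against 1695 to 2779 CPM in WT. This sum too was separated by genotype, in the opposite direction to Nup210. Of the 5, Dcn, Dpp4 and Pi16 were lower in Prmt5 AKO without overlap. Pdgfra and Col1a1 overlapped between the genotypes, with log2 fold changes of -1.23 and 0.05. In a bulk tissue, more or fewer cells of a type and more or less RNA per cell cannot be told apart, and the part of any of these cell types in the Nup210 values was not tested.

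The bases upstream of the start sites of the 3 genes with an unadjusted p under 0.05 are shown because these genes had the smallest p-values of the 57. They are RefSeq windows of 250 bases on GRCm38.p6, 5′ to 3′ on the strand of the gene. Capitals mark GC boxes (GGGCGG or CCGCCC) and CCAAT or its reverse complement ATTGG.
Nup210 (chr6:91116827-91117076, minus strand): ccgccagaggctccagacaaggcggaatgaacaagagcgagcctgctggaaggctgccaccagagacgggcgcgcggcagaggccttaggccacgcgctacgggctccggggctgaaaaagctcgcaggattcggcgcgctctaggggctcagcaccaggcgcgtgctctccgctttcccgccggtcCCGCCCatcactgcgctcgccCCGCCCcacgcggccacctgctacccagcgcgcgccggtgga
Ranbp17 (chr11:33513754-33514003, minus strand): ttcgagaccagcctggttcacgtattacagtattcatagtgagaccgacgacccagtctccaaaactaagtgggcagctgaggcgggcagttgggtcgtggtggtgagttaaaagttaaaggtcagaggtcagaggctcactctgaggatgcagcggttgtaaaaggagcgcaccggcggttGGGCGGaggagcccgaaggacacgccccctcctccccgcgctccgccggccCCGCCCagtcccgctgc
Nxt2 (chrX:142227687-142227936, plus strand, the farther upstream of its RefSeq windows): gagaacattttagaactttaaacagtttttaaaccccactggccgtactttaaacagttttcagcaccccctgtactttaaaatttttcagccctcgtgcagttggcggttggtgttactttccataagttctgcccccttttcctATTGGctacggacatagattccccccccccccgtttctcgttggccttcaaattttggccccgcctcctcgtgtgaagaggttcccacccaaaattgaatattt
The Nup210 and Ranbp17 windows each hold 2 GC boxes and no CCAAT, with 30 and 19 CpG dinucleotides. The Nxt2 window holds 1 ATTGG, no GC box and 8 CpG. It precedes a RefSeq start but lies inside the longer Nxt2 gene annotated by GENCODE, downstream of that annotation's first base. None of the other motifs searched, which were the ETS-type motif CCGGAAG, the TATA box letters TATAAA and the E-box letters CACGTG, was found in the 3 windows on either strand. Windows were at hand for 46 of the 57 members, with a median of 21.5 CpG per window, beside 15 in 11627 genes kept and 6 in all 27025 genes with a window. GC boxes were in 30 of the 46 (65.2%), beside 56.8% of the genes kept and 32.9% of all genes. CCAAT was in 19 (41.3%, beside 35.9% and 34.5%), CACGTG in 8 (17.4%, beside 8.18% and 6.05%), CCGGAAG in 7 (15.2%, beside 12.8% and 7.05%) and TATAAA in 3 (6.52%, beside 7.04% and 13%), each on either strand; motifs could overlap, and CACGTG is its own reverse complement. A match is only a run of letters and no binding site was measured.

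The other genes of the pore membrane did not share the pattern of Nup210. Pom121, a membrane nucleoporin, averaged 28.8 ± 3.10 CPM in Prmt5 AKO and 22.3 ± 7.49 CPM in WT (log2 fold change 0.41). Ndc1, which anchors the pore in the envelope, averaged 22.6 ± 2.13 CPM in Prmt5 AKO and 22.6 ± 2.51 CPM in WT (0.00). Nup210l, a paralog of Nup210, was close to the detection limit at 0.632 ± 0.860 CPM in Prmt5 AKO and 0.636 ± 0.240 CPM in WT. None of these 3 differed by more than the spread between libraries.

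The scaffold of the pore consists of the Y-shaped complex and the inner ring. Of the 6 Y complex genes 5 had negative and 1 a positive log2 fold change (median -0.14, range -0.42 to 0.34). The positive one was Nup85, at 28.2, 29.9 and 28.6 CPM in Prmt5 AKO, against 21.6, 23.8 and 22.8 CPM in WT (log2 fold change 0.34, standard error 0.24, adjusted p = 0.613). The libraries did not overlap between the genotypes, and the difference was small. Nup107, Nup133, Nup160, Nup37 and Nup43 all overlapped between the genotypes.

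Of the 5 inner ring genes 3 had positive values, and their median was 0.11. Nup188, a large scaffold protein (chr2:30286397-30344266, plus strand), was at 34.7, 59.3 and 62.3 CPM in Prmt5 AKO, against 34.1, 34.1 and 25.8 CPM in WT (log2 fold change 0.69, standard error 0.31, adjusted p = 0.580). Prmt5 AKO replicate 1 lay just above the highest WT library and the other 2 Prmt5 AKO libraries well above it. Without that replicate the log2 fold change was 0.96 (adjusted p = 0.0670). Nup93, Nup205, Nup155 and Nup35, further inner ring subunits, lay between -0.17 and 0.31. Exons of Nup188 overlap those of other annotated genes on both strands, so part of its reads may have been assigned elsewhere or not counted.

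The genes of the central channel and of both faces of the pore overlapped between the genotypes throughout. Nup98, whose transcript encodes both NUP98 and the Y complex protein NUP96, was at 51.4, 41.5 and 32.0 CPM in Prmt5 AKO, against 39.8, 30.2 and 28.2 CPM in WT (log2 fold change 0.33, standard error 0.29, adjusted p = 0.641). Nup62 and Nup54, which form the repeat-bearing core of the channel, had values of 0.31 and -0.28. Nup214, which with Nup88 forms the export platform on the cytoplasmic face, was at 21.0, 25.5 and 30.6 CPM in Prmt5 AKO, against 24.0, 19.99 and 13.9 CPM in WT (0.42, standard error 0.31, adjusted p = 0.619). Nup88 (-0.03) and Nupl2 (0.07), a partner of the export factor GLE1, were near 0. In the nuclear basket Nup153 was at 38.1, 17.4 and 17.0 CPM in Prmt5 AKO, against 45.9, 23.3 and 27.5 CPM in WT (-0.45, standard error 0.41, adjusted p = 0.652). Its basket partner Nup50 was among the steadiest members, at 38.4 ± 2.21 CPM in Prmt5 AKO and 35.9 ± 1.86 CPM in WT.

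**Figure D2:**
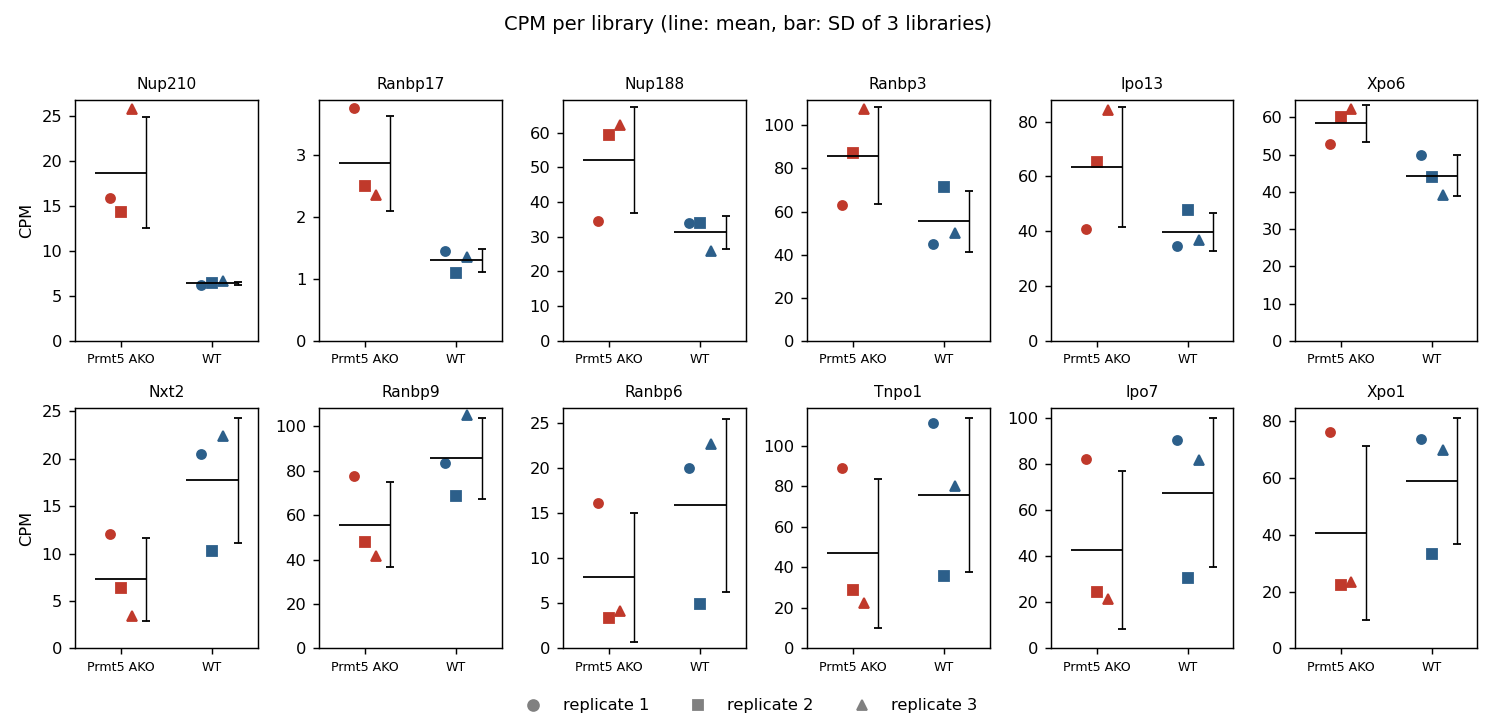
CPM (vertical axes, starting at 0) of the 6 members with the smallest p among those higher in Prmt5 AKO (upper row) and among those lower (lower row), in each of 3 Prmt5 AKO and 3 WT libraries, with the mean (line) and SD (bar). Nup210, Ranbp17, Nup188 and Xpo6 are separated by genotype, while Tnpo1, Ipo7 and Xpo1 are high in replicate 1 of both genotypes and in WT replicate 3.

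The importin alpha proteins bind the classical nuclear localisation signal and hand their cargo to importin beta. Of the 5 Kpna genes 4 had negative log2 fold changes (median -0.29, range -0.55 to 0.19), and Prmt5 AKO replicate 1 was the highest Prmt5 AKO library in all 5. Kpna3 was at 49.3, 24.6 and 14.8 CPM in Prmt5 AKO, against 48.8, 23.8 and 49.9 CPM in WT (log2 fold change -0.55, standard error 0.48, adjusted p = 0.645). In each genotype the libraries ranged more widely than the means differed. Kpna6, the 1 positive member, averaged 91.4 ± 13.7 CPM in Prmt5 AKO and 80.4 ± 15.6 CPM in WT. Kpnb1, the importin beta that works with all of them, averaged 156 ± 59.7 CPM in Prmt5 AKO and 157 ± 22.6 CPM in WT.

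The importin beta family and the transportins carry cargo directly, and their 12 genes had a median of -0.11 with 5 positive and 7 negative values. Ipo13, which can both import and export, was at 40.8, 65.3 and 84.2 CPM in Prmt5 AKO, against 34.8, 47.7 and 36.8 CPM in WT (log2 fold change 0.62, standard error 0.32, adjusted p = 0.597). Ipo4, an importer of histones, averaged 57.8 ± 26.8 CPM in Prmt5 AKO and 36.4 ± 13.7 CPM in WT (0.59). In both genes Prmt5 AKO replicate 1 was the lowest Prmt5 AKO library and lay within the WT range.

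The lowest values of the family were those of Ranbp6, Tnpo1 and Ipo7. Ranbp6, a relative of Ipo5, was at 16.1, 3.34 and 4.11 CPM in Prmt5 AKO, against 20.01, 4.92 and 22.7 CPM in WT (-1.04, standard error 0.72, adjusted p = 0.613). Tnpo1, the transportin of hnRNP proteins, was at 89.2, 29.0 and 22.4 CPM in Prmt5 AKO, against 111, 35.8 and 80.0 CPM in WT (-0.81, standard error 0.59, adjusted p = 0.619). Ipo7 was at 82.4, 24.7 and 21.6 CPM in Prmt5 AKO, against 90.4, 30.5 and 81.8 CPM in WT (-0.78, standard error 0.60, adjusted p = 0.624). In all 3 genes Prmt5 AKO replicate 1 was more than 3 times as high as the other Prmt5 AKO libraries and WT replicate 2 was the lowest WT library, so the genotypes overlapped. Ipo5 and Ipo9, importers of ribosomal proteins and histones, were steady by contrast, with Ipo5 at 106 ± 16.5 CPM in Prmt5 AKO and 99.8 ± 0.324 CPM in WT. Tnpo2 (0.30), Ipo8 (-0.15), Ipo11 (-0.16) and Tnpo3 (-0.41), the importer of splicing factors, overlapped as well.

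The exportins were divided, with 3 positive and 4 negative values around a median of -0.13. All 3 positive ones were among the members whose genotypes did not overlap (42.9% of the exportins, beside 8.16% of all genes higher in Prmt5 AKO without overlap). Ranbp17, a relative of Xpo7 (chr11:33211795-33513746, minus strand), was expressed at a low level of 3.76, 2.497 and 2.36 CPM in Prmt5 AKO, against 1.45, 1.10 and 1.35 CPM in WT (log2 fold change 0.89, standard error 0.33, adjusted p = 0.507). These values rest on between 29 and 81 reads per library, and its exons overlap those of an annotated gene on the opposite strand. Xpo6, which exports actin with profilin, was at 52.9, 60.2 and 62.3 CPM in Prmt5 AKO, against 50.01, 44.0 and 39.2 CPM in WT (0.40, standard error 0.24, adjusted p = 0.608). Xpo5, the exporter of precursor microRNAs, averaged 36.3 ± 1.49 CPM in Prmt5 AKO and 28.5 ± 2.99 CPM in WT (0.35).

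Xpo1, the main exporter of proteins with a leucine-rich signal, was at 76.3, 22.5 and 23.5 CPM in Prmt5 AKO, against 73.7, 33.3 and 69.8 CPM in WT (-0.69, standard error 0.53, adjusted p = 0.624). Like Tnpo1 and Ipo7 it was high in Prmt5 AKO replicate 1 and in WT replicates 1 and 3. The other negative exportins were Xpo4 (-0.55), Xpot, the tRNA exporter (-0.23), and Xpo7 (-0.13).

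Ran, which is GTP-bound in the nucleus and drives the direction of transport, had the highest level per kilobase of exon of all 57 members. It averaged 217 ± 59.5 CPM in Prmt5 AKO and 185 ± 58.9 CPM in WT (log2 fold change 0.25). Rangap1, which switches Ran off in the cytoplasm, averaged 63.2 ± 19.6 CPM in Prmt5 AKO and 43.5 ± 11.9 CPM in WT (0.52). Ranbp3, a cofactor of XPO1 in export, was at 63.1, 87.2 and 108 CPM in Prmt5 AKO, against 44.9, 71.4 and 50.03 CPM in WT (0.62, standard error 0.31, adjusted p = 0.596). Prmt5 AKO replicate 1 was the lowest Prmt5 AKO library in all 3 genes. Ranbp3l, a relative of Ranbp3, was barely detected, at 0.635 ± 1.02 CPM in Prmt5 AKO and 0.831 ± 0.756 CPM in WT, with 0 reads in Prmt5 AKO replicate 2, where a count of 0 allows up to 0.134 CPM (3 reads, counting error only).

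Among the mRNA export genes Nxt2 stood lowest. Nxt2, a paralog of Nxt1 (chrX:142226770-142239692, plus strand), was at 12.01, 6.38 and 3.40 CPM in Prmt5 AKO, against 20.5, 10.2 and 22.4 CPM in WT (log2 fold change -1.31, standard error 0.50, adjusted p = 0.515). Prmt5 AKO replicate 1 exceeded WT replicate 2, so the genotypes overlapped. Nxf1, the receptor itself, averaged 56.0 ± 26.0 CPM in Prmt5 AKO and 59.8 ± 9.12 CPM in WT (-0.18). Nxt1, its partner, averaged 18.2 ± 7.63 CPM in Prmt5 AKO and 14.0 ± 5.18 CPM in WT (0.32).

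The symbols of Ranbp9 and Ranbp10 also matched, although their proteins are subunits of the CTLH ubiquitin ligase and not transport receptors. Ranbp9 was at 77.5, 48.1 and 41.5 CPM in Prmt5 AKO, against 83.3, 68.4 and 105 CPM in WT (-0.65, standard error 0.32, adjusted p = 0.596), with only Prmt5 AKO replicate 1 inside the WT range. Ranbp10 averaged 41.7 ± 6.20 CPM in Prmt5 AKO and 33.3 ± 2.82 CPM in WT (0.31).

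**Figure D3:**
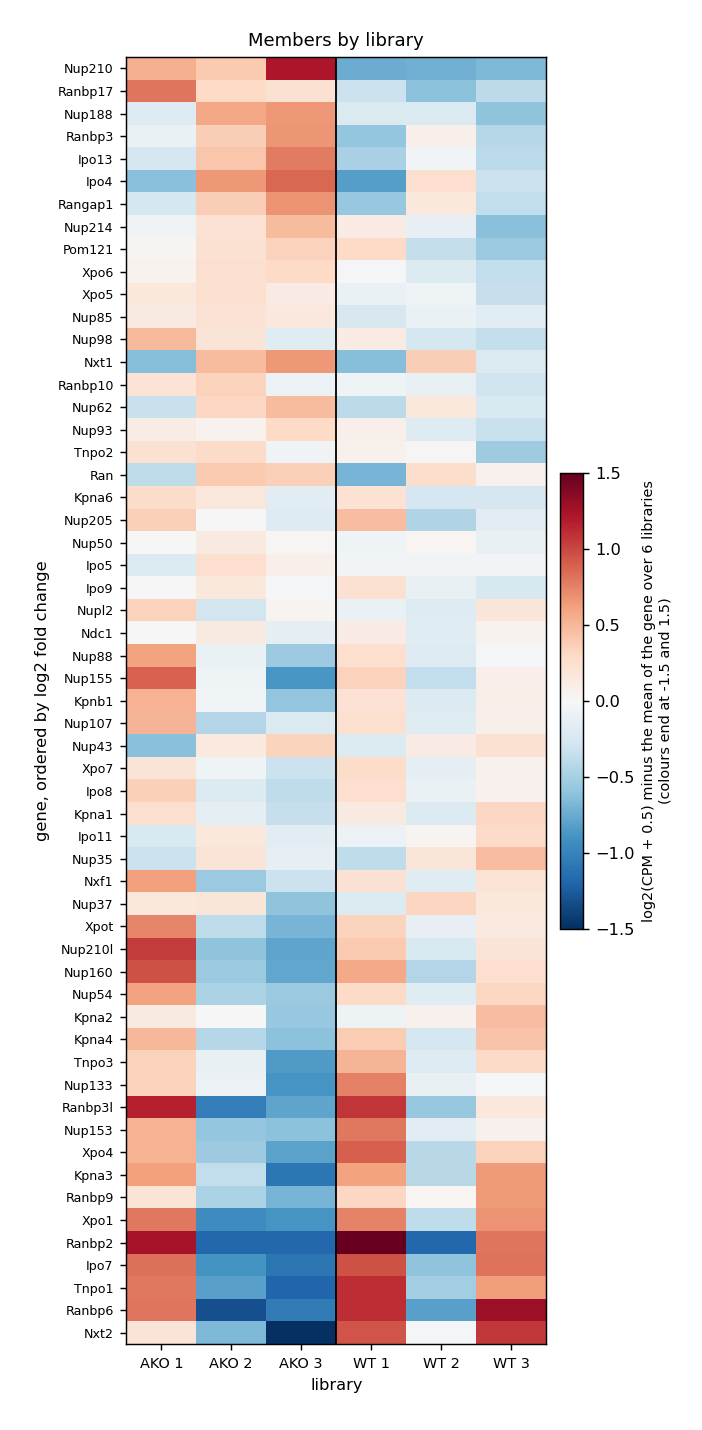
Each row is 1 of the 57 genes, ordered by log2 fold change, and each column 1 library. Colour gives log2(CPM + 0.5) minus the gene's mean over the 6 libraries. In the rows of Xpo1, Ranbp2, Ipo7, Tnpo1 and Ranbp6, Prmt5 AKO replicate 1 is on the high side with WT replicates 1 and 3, and Prmt5 AKO replicates 2 and 3 are on the low side with WT replicate 2.

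Libraries of 1 genotype often differed more than the genotypes did. Prmt5 AKO replicate 1 was the highest Prmt5 AKO library in 32 of the 57 (56.1%, beside 45.1% of all genes) and the lowest in 17 (29.8%, beside 42.0%). WT replicate 2 was the lowest WT library in 31 and the highest in 12 of the 57, beside 6519 and 6258 of the 16109 genes kept. The widest spread was that of Ranbp2, the SUMO ligase of the cytoplasmic filaments, which is given here per library because of that spread. It was at 102, 18.5 and 18.5 CPM in Prmt5 AKO, against 121, 18.5 and 74.4 CPM in WT (log2 fold change -0.74, standard error 0.83, adjusted p = 0.696). Ipo4, at 27.5, 67.6 and 78.2 CPM in Prmt5 AKO, against 23.9, 51.1 and 34.2 CPM in WT, ran the opposite way across the same libraries.

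The same libraries differed in nuclear-retained RNA. Neat1, Malat1, Meg3 and Kcnq1ot1 summed to 2027, 139 and 140 CPM in Prmt5 AKO, against 2066, 659 and 1585 CPM in WT. All 4 had negative log2 fold changes (median -0.95) and none was called. The part of this difference in the values of Ranbp2, Tnpo1, Ipo7, Xpo1 and the other members was not tested. Without Prmt5 AKO replicate 1, limma called 0 of the 57 (beside 0.335% of all genes as higher and 0.186% as lower), and 6 members were higher (10.5%, beside 15.6% of all genes) and 13 lower (22.8%, beside 19.6%) at an unadjusted p under 0.05. The Prmt5 AKO libraries left in this fit lay opposite WT replicates 1 and 3 on the first principal component, with only WT replicate 2 on their side. Genotype and that axis can therefore not be told apart well in this fit. In it Nup210 had a log2 fold change of 1.52 (adjusted p = 0.0614), Nxt2 one of -1.74 (adjusted p = 0.0637) and Xpo1 one of -1.26 (adjusted p = 0.0700). Ranbp17 was no longer under an unadjusted p of 0.05 (log2 fold change 0.71, limma adjusted p = 0.175). The negative values of Ranbp6 (-1.70), Tnpo1 (-1.41), Ipo7 (-1.38) and Kpna3 (-0.9995) became larger in size (adjusted p = 0.0874, 0.0757, 0.0782 and 0.109 from limma). That of Ipo11 instead moved toward 0, at -0.09. Nup153 had -0.83 and Ranbp2 -1.55 (adjusted p = 0.118 and 0.123). Among the positive members Ipo4 had 1.06 (adjusted p = 0.0777), Ipo13 0.91 (adjusted p = 0.0727) and Ranbp3 0.83 (adjusted p = 0.0879), and Ranbp9 on the negative side had -0.91 (adjusted p = 0.0731). Nup98 was instead nearer to 0, at 0.17 (adjusted p = 0.683). These values also moved with other libraries. Leaving out each of the 6 libraries in turn gave -0.9995 to -0.15 for Kpna3, -1.71 to -0.65 for Ranbp6, -1.41 to -0.42 for Tnpo1, -1.38 to -0.43 for Ipo7 and 0.17 to 0.51 for Nup98. The members' median was -0.09, beside -0.04 over all genes.

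**Figure D4:**
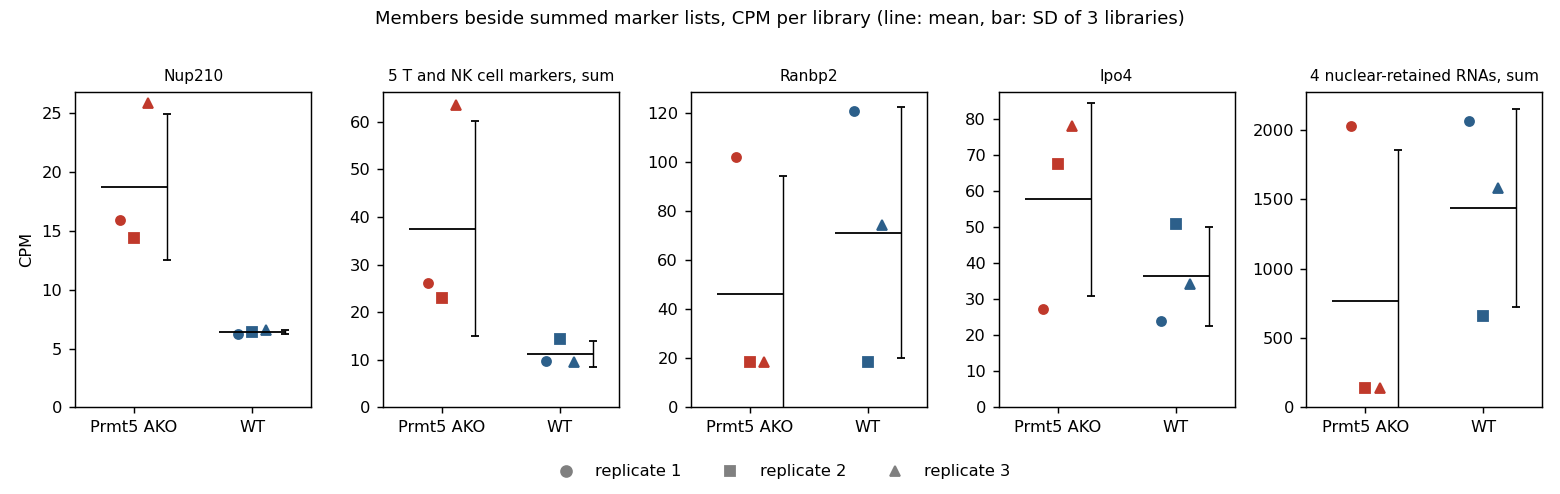
CPM (vertical axes, starting at 0) of Nup210, Ranbp2 and Ipo4 beside the summed CPM of 5 T and NK cell markers and of 4 nuclear-retained RNAs, in 3 Prmt5 AKO and 3 WT libraries, with the mean (line) and SD (bar, ending at 0 where it would pass below). Prmt5 AKO replicate 3 is the highest library for Nup210 and for the T and NK cell markers, as it is for the macrophage, smooth muscle, mesothelial and B cell markers, which are not drawn. Ranbp2 and the nuclear-retained RNAs are both high in replicate 1 of both genotypes and in WT replicate 3, and low in Prmt5 AKO replicates 2 and 3. WT replicate 2 is as low as those for Ranbp2, but lies in between for the nuclear-retained RNAs (659 CPM, against 139 and 140 CPM).

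Genes of the pathway with other names were followed in a separate list. Of 38 listed, 35 were in the table and kept, with 17 positive and 18 negative values and a median log2 fold change of -0.01. Limma called 0 of them, and 2 higher (5.71%, beside 4.79% of all genes) and 0 lower (beside 3.93%) had an unadjusted p under 0.05. Aaas, which encodes the pore protein ALADIN that binds NDC1, was at 21.5, 25.4 and 23.8 CPM in Prmt5 AKO, against 11.01, 14.2 and 10.96 CPM in WT (log2 fold change 0.95, standard error 0.27, adjusted p = 0.383), so the genotypes did not overlap. Alyref, an adaptor that hands mRNA to NXF1, was at 37.9, 61.8 and 53.4 CPM in Prmt5 AKO, against 22.4, 37.2 and 31.7 CPM in WT (0.74, standard error 0.31, adjusted p = 0.561). Thoc3, a subunit of the THO complex of mRNA export, was at 45.4, 87.3 and 64.2 CPM in Prmt5 AKO, against 36.7, 47.1 and 38.4 CPM in WT (0.64, standard error 0.30, adjusted p = 0.588). Alyref did not overlap by a margin of less than 1 CPM, and Thoc3 overlapped. Of the 35, 6 had all Prmt5 AKO libraries above all WT libraries (17.1%, beside 8.16% of all genes) and 2 had them below (5.71%, beside 6.28%).

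Genes of the nuclear envelope, in which the pores sit, also centred near 0. All 18 listed were kept, with 9 positive and 9 negative values and a median of -0.07, and limma called 0. At an unadjusted p under 0.05 there were 1 higher (5.56%, beside 4.79% of all genes) and 0 lower (beside 3.93%). Lemd2, an inner membrane protein, was at 85.3, 110 and 128 CPM in Prmt5 AKO, against 52.8, 81.7 and 51.4 CPM in WT (0.81, standard error 0.29, adjusted p = 0.498). Lmna, the A-type lamin gene, was at 185, 332 and 310 CPM in Prmt5 AKO, against 143, 219 and 153 CPM in WT (0.66, standard error 0.33, adjusted p = 0.596). Lbr, the lamin B receptor, was at 21.4, 8.74 and 5.90 CPM in Prmt5 AKO, against 26.9, 14.5 and 22.4 CPM in WT (-0.95, standard error 0.49, adjusted p = 0.597). Lemd2 was separated by genotype, whereas Lmna and Lbr overlapped.

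Levels can be compared between genes only per length, here as CPM per kilobase of the exons annotated in GENCODE release M21. Ran was at 82.0 in Prmt5 AKO and 69.8 in WT per kilobase. Kpnb1 followed at 23.7 and 23.9 per kilobase in Prmt5 AKO and WT, and Ipo5 at 17.7 and 16.6. Xpo1 was at 5.67 per kilobase in Prmt5 AKO and 8.21 in WT. Nup210 was at 1.79 per kilobase in Prmt5 AKO and 0.614 in WT, so the member with the largest difference was one of the least abundant, and only Nup160, Ranbp17, Nup210l and Ranbp3l had lower means over all libraries. Of the other scaffold genes, Nup85 was at 8.54 per kilobase in Prmt5 AKO and 6.72 in WT and Nup93 was at 4.31 in Prmt5 AKO and 3.48 in WT.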

How the data were processed

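RNA-seq of eWAT was used, with 3 Prmt5 AKO and 3 WT libraries. By the paper's methods and the labels, the authors trimmed the reads (Trim Galore 0.6.0), aligned them to GRCm38 (STAR 2.7.10a), kept only uniquely mapped proper pairs and counted reads per gene (featureCounts of Subread 2.0.1). A batch correction is mentioned in the paper, without saying what the batches were. The deposited signal of each library, called CPM here, is reads divided by an effective library size, so the columns sum to different totals; plain CPM had been assumed when the test was planned, and the test on the log scale was kept. In every library 100% of the values were whole reads within 0.05 of a read, and these reads were used only in edgeR and DESeq2. The authors' fold changes, p-values, gene lists and DAVID terms were not used.

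The filter of 0.5 CPM in 3 or more libraries left 16109 of 16619 genes. The model of limma 3.58.1 (eBayes with trend) held genotype alone, on log2(CPM + 0.5), which understates the fold changes of low genes. Benjamini-Hochberg adjustment ran over all genes left. Calls needed adjusted p values below 0.05 together with log2 fold changes beyond 0.5 in either direction. Named with all values are the 6 members of smallest p in each direction and the one of smallest p in each role group; of the 2 other lists, called genes or else the 3 of smallest p. Values of Ranbp2 and Ipo4 by library were added after they were seen. The members and lists were chosen with earlier results of these data known. EdgeR 4.0.16 and DESeq2 1.42.0 were alternatives, besides other pseudocounts, filters and scaling, the replicate number as a block and each library left out in turn. The fit was tested on simulated data. Exon lengths and positions are from GENCODE M21, promoter windows from RefSeq. Whether the counting used strand is not given in the sources used here, and exons of 19 members overlap those of another gene, 5 of them (Nup188, Nup214, Ranbp17, Ranbp6 and Ranbp9) named with all values. Protein sequences were not analysed here. R 4.3.3 and Python 3.11.15 were used.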

Additional observations from a re-analysis of the deposited data

How the results depend on the processing

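Limma called 0 of all genes and 0 of the 57 members. EdgeR's likelihood ratio test called 162 genes (109 higher, 53 lower) and 1 member, and DESeq2 301 (193 higher, 108 lower) and 1 member, which was Nup210 under both. EdgeR's quasi-likelihood test called 0 genes, with 4 members at an unadjusted p under 0.05. Once the replicate number entered as a block, limma called 129 genes (0.546% of all genes as higher and 0.255% as lower) and 0 members. It then put 5 members as higher and 5 as lower, 10 in all, below an unadjusted p of 0.05, beside 9% and 10.8% of all genes. EdgeR's likelihood ratio test with that block called 682 genes (2.19% of all genes as higher and 2.04% as lower) and 1 member, Nup210. It put 8 members below an unadjusted p of 0.05 (4 higher and 4 lower, beside 9.08% and 11% of all genes). It also called Prmt5 (log2 fold change -1.08, adjusted p = 0.0366). The deviations of same-numbered libraries correlated at 0.68, 0.57 and -0.11, so the numbers were not taken as pairs in the main fit. Whether same-numbered libraries shared a batch was not tested.

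Leaving out 1 library at a time gave 0 to 84 called genes, 0 called members and 1 to 19 members at an unadjusted p under 0.05, beside 3 with all libraries. There were 84 genes and 19 members without Prmt5 AKO replicate 1, and 1 member without WT replicate 1 or WT replicate 3. The log2 fold change of Nup210 stayed between 1.18 and 1.59 in these fits. Over the 17 alternatives none of the 17 members named with all values changed direction, and Nup210 was the only one called, under 3 alternatives (adjusted p between 0.00393 and 0.946). The members' median log2 fold change ranged between -0.12 and 0.08 with 1 library left out, and 23 to 34 members were positive. Other pseudocounts, filters, the scaling to library totals and the fold change minimum changed no call. The depth gave between 29 and 81 reads to Ranbp17 and at most 39 to Nup210l and Ranbp3l, so differences in these genes rest on few reads.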
